A study of Glycine max with 4 samples.

Results

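Reference genes are transcripts taken as steady, against which the other transcripts of a sample are expressed in quantitative PCR. The 6 gene models described here are used in this way in soybean: ACT11 (Glyma18g52780), TUA5 (Glyma05g29000), ELF1B (Glyma02g44460), CYP2 (Glyma12g02790), SKIP16 (Glyma12g05510) and UKN1 (Glyma12g02310). They were chosen by identifier, not by their values, from the 66210 gene models of the deposited count files, and all 6 were found in all 4 files. The names are those under which the identifiers are used in quantitative PCR, and the files give identifiers only. By the identifiers, CYP2, SKIP16 and UKN1 lie on chromosome 12, and ACT11, TUA5 and ELF1B on chromosomes 18, 5 and 2. The question was how steady each of them was from seed filling to the seedling, and how far the answer depended on the way libraries were scaled.

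The samples came from greenhouse-grown plants of the cultivar Williams 82, and each stage was represented by 1 library of polyadenylated RNA. B1 was green cotyledons of mid-maturation embryos (150 to 250 mg a pair) and AA1 was yellow cotyledons of late-maturation embryos (200 to 350 mg a pair), both freed of seed coat and axis. Dry seed was the whole seed (100 to 250 mg), mostly cotyledon with a little seed coat and axis, and seedling was the cotyledons 6 days after imbibition. With 1 library per stage there was no replicate check and no test across samples, so no p-value is given, and a difference between stages cannot be told apart from one between library preparations. The intervals given are exact binomial 95% intervals and cover counting error only. The labelled tissues could not be checked against marker genes, because no identifier of the files matched the gene table at hand.

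Those of the 6 proteins with a known role belong to processes that most living cells run. ACT11 is an actin and TUA5 an alpha-tubulin, the subunits of actin filaments and of microtubules. ELF1B is the beta subunit of translation elongation factor 1, which reloads the factor that brings aminoacyl-tRNA to the ribosome with GTP. CYP2 is a cyclophilin, an enzyme that turns the peptide bond before proline during protein folding. SKIP16 is named after an Arabidopsis F-box protein, a class that selects proteins for ubiquitination, and UKN1 stands for a protein of unknown function. Cotyledons fill with reserves during maturation, are dry and quiescent in the mature seed, and become green and photosynthetic in the seedling.

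Levels are given as counts per 1000000 counts (CPM) in 2 forms. Plain CPM divides a count by the total of its library, and TMM-scaled CPM divides it by that total times a factor that is set by the bulk of gene models (trimmed mean of M-values). Totals ranged from 16120894 counts in B1 to 38011608 in AA1. The TMM factor was lowest for B1 (0.581) and highest for the seedling (1.51), with AA1 at 1.05 and dry seed at 1.08. The same count per total is therefore worth more in B1, and less in the seedling, under TMM than under plain CPM. Neither form is corrected for transcript length, so levels of different genes are not compared with each other. Actins, tubulins, elongation factors and cyclophilins form families with near-identical copies, and how reads shared by such copies were counted is not known, which leaves a doubt about the value of any 1 family member.

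1 of the 6 genes stayed within 2-fold over the 4 libraries under TMM, and 0 of 6 under plain CPM. SKIP16 was the steadiest under TMM, with a highest level 1.54 times its lowest, and ACT11 was the steadiest under plain CPM, at 2.56 times. Steady under TMM means that a gene moved with the bulk of gene models, not that its amount was constant. ELF1B and TUA5 varied most under both, by 23.4-fold and 47.3-fold under TMM and by 12.6-fold and 65.9-fold under plain CPM. Of the 33358 gene models that reached 1 scaled CPM in any library, 7.45% stayed within 2-fold under TMM and 3.87% under plain CPM. A highest level at least 10 times the lowest was found for 2 of the 6 genes under both scalings, against 40.7% of all gene models under TMM and 48.4% under plain CPM.

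**Figure D1:**
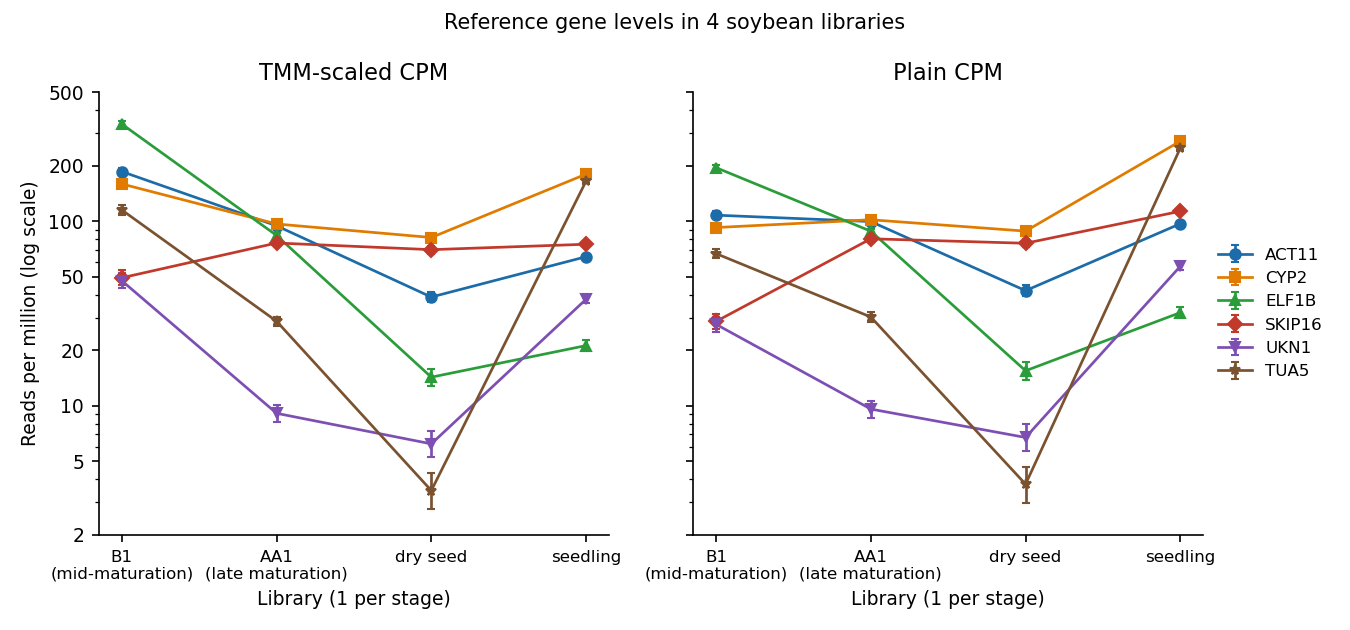
Level of each reference gene in the 4 libraries, in TMM-scaled CPM (left) and plain CPM (right) on a log axis. Points are single libraries, bars are exact 95% counting intervals, and lines join the points of 1 gene. Except for SKIP16, every gene was lowest in dry seed in both panels, and levels should be compared along a line and not between lines.

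Dry seed was the lowest library for 5 of the 6 genes under both scalings. The exception was SKIP16, which was lowest in B1. Among all 33358 gene models, 30.7% were lowest in dry seed under TMM and 26.2% under plain CPM. Which library was highest depended on the scaling. Under TMM, 3 genes were highest in B1, 1 in AA1 and 2 in the seedling, against 23.1%, 14.0% and 35.3% of all gene models. Under plain CPM 2 were highest in B1, 0 in AA1 and 4 in the seedling, against 9.60%, 13.5% and 50.6% of all. In bulk RNA of this kind, fewer cells with a transcript and less of it per cell cannot be told apart. The seed coat and axis in the dry seed, which the cotyledon libraries were dissected to leave out, go with each comparison that includes dry seed, and their part in it was not tested.

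The cytoskeletal genes were taken first. ACT11 had 1736 counts at B1, 3780 at AA1, 904 in dry seed and 2728 in the seedling. These were 185, 94.3, 38.8 and 64.2 TMM-scaled CPM in the same order, and 108, 99.4, 42.0 and 96.8 plain CPM. Under plain CPM the 2 embryonic cotyledon libraries and the seedling thus lay close together and dry seed was low, whereas under TMM B1 also stood above the rest. The ratio of highest to lowest was 4.78 under TMM (interval 4.41 to 5.18) and 2.56 under plain CPM (2.36 to 2.78), with B1 highest and dry seed lowest in both. Between seedling and B1, ACT11 was 2.89-fold lower in the seedling under TMM (2.72 to 3.07) and 1.11-fold lower under plain CPM (1.05 to 1.18).

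TUA5 had the widest range of the 6. Its counts were 1075 at B1, 1150 at AA1, 81 in dry seed and 6993 in the seedling, which are 115, 28.7, 3.48 and 164 TMM-scaled CPM and 66.7, 30.3, 3.77 and 248 plain CPM. Transcript levels of this tubulin were thus lower at each successive seed stage and high again in the seedling. Seedling cotyledons had 47.3-fold more than dry seed under TMM (38.0 to 59.6) and 65.9-fold more under plain CPM (52.9 to 83.1). The dry-seed value rests on 81 counts, the fewest of any gene and library here, and its interval ran from 2.76 to 4.32 scaled CPM. Of all gene models compared between these libraries, 93.6% had a seedling to dry-seed difference at or below that of TUA5.

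ELF1B, the translation factor, was highest in the filling embryo. Its counts were 3138 at B1, 3351 at AA1, 333 in dry seed and 901 in the seedling. The levels were 335, 83.6, 14.3 and 21.2 TMM-scaled CPM and 195, 88.2, 15.5 and 32.0 plain CPM. Both scalings gave the order B1, AA1, seedling, dry seed from high to low. Dry seed was 23.4-fold lower than B1 under TMM (20.9 to 26.3) and 12.6-fold lower under plain CPM (11.2 to 14.1). Unlike TUA5, ELF1B did not return to its B1 level in the seedling, which stayed 15.8-fold lower than B1 under TMM (14.7 to 17.1) and 6.09-fold lower under plain CPM (5.65 to 6.57).

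CYP2, the cyclophilin, was among the 2 steadiest genes under both scalings. It had 1488 counts at B1, 3866 at AA1, 1899 in dry seed and 7635 in the seedling, or 159, 96.5, 81.5 and 180 TMM-scaled CPM and 92.3, 102, 88.3 and 271 plain CPM. Under plain CPM the 3 seed libraries were nearly level and the seedling stood above them. Under TMM, B1 and the seedling stood above AA1 and dry seed. The highest over the lowest was 2.20 under TMM (2.09 to 2.32) and 3.07 under plain CPM (2.92 to 3.23). With TMM factors from a filtered set of gene models the ratio was 1.98, with an interval of 1.85 to 2.12 that crossed the 2-fold limit. It was 2.04 with DESeq2 size factors, 2.22 with the upper quartile and 2.67 with totals without the 100 most abundant gene models. The order of AA1 and B1 turned with the scaling. AA1 was 1.65-fold lower than B1 under TMM (1.55 to 1.75) and 1.10-fold higher under plain CPM (1.04 to 1.17).

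SKIP16 had 462 counts at B1, 3050 at AA1, 1632 in dry seed and 3187 in the seedling. Under TMM the levels were 49.3, 76.1, 70.1 and 74.9 scaled CPM, so the last 3 libraries were nearly level and B1 was somewhat lower. Under plain CPM they were 28.7, 80.2, 75.9 and 113, so B1 was low, the seedling high and the other 2 in between. The ratio of highest to lowest was 1.54 under TMM (1.40 to 1.70) and 3.94 under plain CPM (3.58 to 4.36). Without B1 it was 1.09 under TMM. Under TMM 737 of the 33358 gene models were steadier than SKIP16, and under plain CPM 6886 were.

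UKN1 had 445 counts at B1, 365 at AA1, 145 in dry seed and 1604 in the seedling. The levels were 47.5, 9.11, 6.22 and 37.7 TMM-scaled CPM and 27.6, 9.60, 6.74 and 56.9 plain CPM. B1 and the seedling were thus high, and AA1 and dry seed low, in either form. The highest over the lowest was 7.64 under TMM (6.32 to 9.28) and 8.44 under plain CPM (7.12 to 10.1). The order of the 2 high libraries turned: the seedling was 1.26-fold lower than B1 under TMM (1.13 to 1.40) and 2.06-fold higher under plain CPM (1.85 to 2.29).

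**Figure D2:**
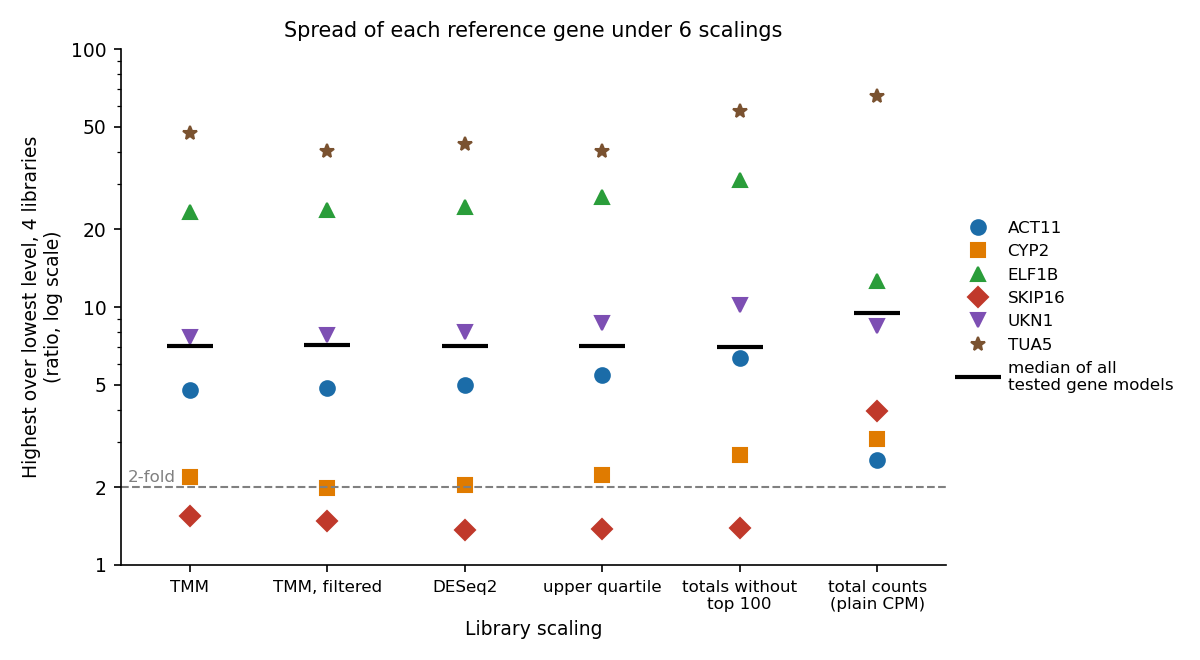
Highest over lowest level of each reference gene over the 4 libraries (log axis) under 6 library scalings. Black bars are the median over all tested gene models, and the dashed line marks 2-fold. SKIP16 was steadiest under 5 scalings at 1.37 to 1.54 and stood at 3.94 with total counts, under which ACT11 was steadiest at 2.56.

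As a group, the 6 genes had a spread close to that of an ordinary transcript under TMM. The median of the highest over the lowest was 6.21 over the 6 genes and 7.08 over all 33358 gene models under TMM. Under plain CPM it was 6.19 over the 6 genes and 9.50 over all. Among the 13181 gene models whose mean reached 10 scaled CPM, which leaves out rare transcripts, the median was 5.47 under TMM and 7.75 under plain CPM. Against those 13181, SKIP16 was at or above 2.40% of spreads under TMM and 24.2% under plain CPM, and CYP2 at or above 11.6% and 15.6%. The corresponding shares for ACT11 were 44.2% under TMM and 10.2% under plain CPM. UKN1 stood at 62.0% under TMM and 53.0% under plain CPM, ELF1B at 81.8% and 65.5%, and TUA5 at 87.1% and 87.5%.

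The 3 consecutive steps differed in which genes passed a 2-fold distance. From here on, a later stage is set over an earlier one, and 2-fold is a limit of size and not a test. In AA1 against B1 under TMM, 0 of the 6 genes were at least 2-fold higher, against 31.1% of all gene models, and 3 were at least 2-fold lower, against 27.6%. The 3 were UKN1, 5.22-fold lower in AA1 (4.53 to 6.01), ELF1B, 4.01-fold lower (3.82 to 4.21), and TUA5, whose interval ran from 3.68-fold to 4.35-fold lower. ACT11 was 1.97-fold lower, and its interval of 1.86 to 2.08 reached across the limit, which it passed with the other scalings except plain CPM, at 2.05-fold to 2.27-fold lower. Under plain CPM 1 gene was at least 2-fold higher in AA1, against 51.1% of all, and 3 were lower, against 17.8%. The higher one was SKIP16, at 2.80-fold (2.54 to 3.09), and the lower ones were again UKN1, ELF1B and TUA5.

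In dry seed against AA1, the scalings gave nearly the same picture. Under TMM dry seed was at least 2-fold higher for 0 genes, against 19.5% of all gene models, and at least 2-fold lower for 3, against 23.7%. Under plain CPM the counts were also 0 and 3, against 20.5% and 22.9%. The 3 genes were TUA5, 8.26-fold lower under TMM (6.59 to 10.5), ELF1B, 5.85-fold lower (5.23 to 6.57), and ACT11, 2.43-fold lower (2.26 to 2.62). CYP2 and SKIP16 were 1.18-fold and 1.09-fold lower in dry seed under TMM, and UKN1 was 1.46-fold lower.

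In the seedling against dry seed, every gene was higher in the seedling under both of these scalings. At least 2-fold higher under TMM were 3 genes, against 41.4% of all gene models, and 0 were at least 2-fold lower, against 29.4%. They were TUA5, UKN1 at 6.06-fold (5.11 to 7.23) and CYP2 at 2.20-fold. The CYP2 difference was under 2-fold with 3 other scalings. It was 1.88-fold with the upper quartile and with the filtered TMM and just below 2-fold with DESeq2 size factors. That left 2 genes at least 2-fold higher under each, against 38.9% to 39.9% of all gene models. Under plain CPM 5 genes were at least 2-fold higher, against 47.3%, and 0 were lower, against 22.1%, with SKIP16 at 1.49-fold as the one below the limit. With the same 3 scalings, SKIP16 was slightly lower in the seedling, by 0.04 to 0.13 on the log2 scale.

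The remaining pairs set non-neighbouring stages side by side. In dry seed against B1, 0 genes were at least 2-fold higher under TMM, against 35.6% of all gene models, and 4 were lower, against 34.7%. Under plain CPM 1 was higher, against 49.9%, and 4 were lower, against 25.2%. TUA5 was 33.0-fold lower in dry seed under TMM (26.3 to 41.9) and 17.7-fold lower under plain CPM (14.1 to 22.5). The counts changed most with the scaling in the seedling against B1. Under TMM 0 genes were at least 2-fold higher, against 37.9%, and 2 were lower, against 22.7%. Under plain CPM 4 were higher, against 66.9%, and 1 was lower, against 9.26%. In the seedling against AA1, 2 genes were at least 2-fold higher under TMM, against 36.8%, and 1 was lower, against 24.4%, while under plain CPM 3 were higher, against 45.4%, and 1 was lower, against 16.4%. The lower gene in this last pair was ELF1B, 3.95-fold lower in the seedling under TMM (3.67 to 4.25), and TUA5 and UKN1 were 5.73-fold and 4.14-fold higher.

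Distances to the median gene model do not depend on the scaling, since a change of scaling shifts all gene models alike. For AA1 against B1 that median was 0.19 on the log2 scale under TMM and 1.05 under plain CPM. For dry seed against AA1 it was -0.03 and 0.01, and for the seedling against dry seed 0.32 and 0.80. Measured from the median, SKIP16 was 0.44 higher in AA1 than in B1, 0.09 lower in dry seed than in AA1 and 0.22 lower in the seedling than in dry seed, all as log2 differences. CYP2 differed from the median by -0.91, -0.21 and 0.82 over the same 3 steps, and ACT11 by -1.16, -1.25 and 0.41. SKIP16 was thus nearest to the median gene model at each step. The bulk of gene models also sets the TMM factors, so this largely restates that SKIP16 was steadiest under TMM. The near-equal plain CPM of ACT11 in AA1 and B1 was a difference below that of the median gene model.

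The ratio of 2 genes within a library is free of any scaling, as in a quantitative PCR experiment. For each of the 15 pairs, the SD of the log2 ratio over the 4 libraries was taken, and M is a gene's mean over its 5 partners, the measure used by the geNorm method. A low M means that a gene moved with the others, not that it was constant. ACT11 had the lowest M, at 1.26, followed by CYP2 at 1.29, UKN1 at 1.37, SKIP16 at 1.69, ELF1B at 1.92 and TUA5 at 2.06. SKIP16, steadiest under TMM, thus stood behind 3 others by M. When the gene with the highest M was removed step by step, TUA5, ELF1B, UKN1 and ACT11 left in this order, and CYP2 with SKIP16 remained.

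The pair of CYP2 and SKIP16 varied least, with an SD of 0.71. CYP2 had 3.22 counts per count of SKIP16 at B1, 1.27 at AA1, 1.16 in dry seed and 2.40 in the seedling. Even the closest pair of the 6 thus changed its ratio 2.77-fold over the 4 libraries. The pair of SKIP16 and TUA5 varied most, with an SD of 2.62, and its ratio was 0.43 at B1, 2.65 at AA1, 20.1 in dry seed and 0.46 in the seedling. ELF1B and TUA5 ran in parallel through the 3 seed libraries, with ratios of 2.92, 2.91 and 4.11, and parted in the seedling, where the ratio was 0.129.

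**Figure D3:**
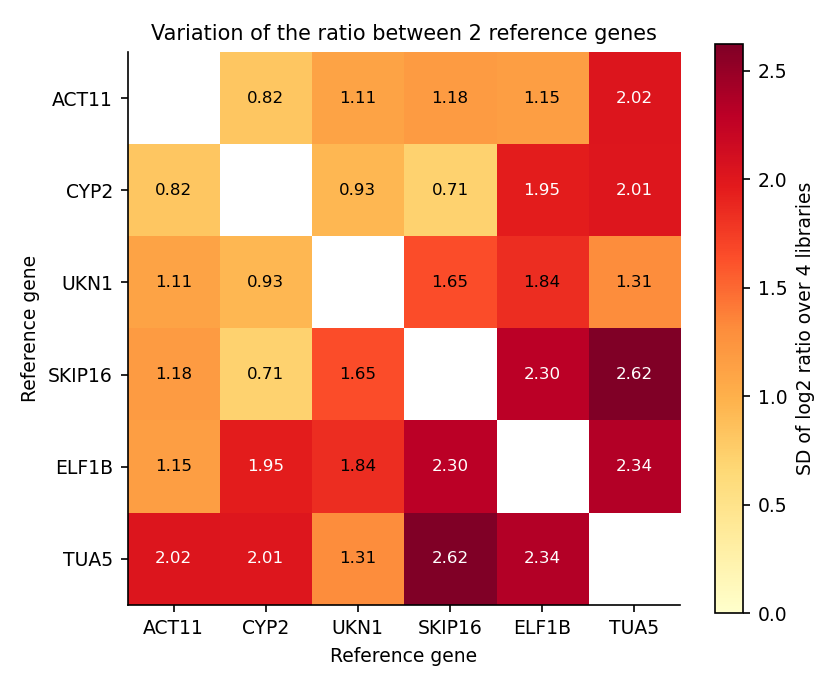
SD over the 4 libraries of the log2 ratio between 2 reference genes, with genes ordered by M from lowest to highest. Darker cells mark pairs whose ratio changed more. The lowest value is 0.71 for CYP2 with SKIP16 and the highest 2.62 for SKIP16 with TUA5.

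The effect of using such genes as references was then measured over all gene models. In place of TMM, libraries were scaled so that the geometric mean of the 6 genes was equal in all 4, and gene models at least 4-fold apart were counted. In AA1 against B1 10711 gene models were then higher and 2693 lower, together 46.0% of 29154. In dry seed against AA1 7190 were higher and 690 lower, 29.9% of 26397. In the seedling against dry seed 5150 were higher and 13116 lower, 58.6% of 31169. With TMM the same 3 steps had 3836, 1574 and 9813 gene models higher and 4828, 2575 and 4882 lower. The balance of higher to lower was therefore opposite between the geometric mean and TMM at all 3 steps.

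Single genes as references gave results that depended on the gene. With SKIP16 alone, 2004 gene models were at least 4-fold higher and 6659 lower in AA1 against B1, 1804 higher and 2318 lower in dry seed against AA1, and 9530 higher and 5232 lower in the seedling against dry seed. These counts leaned the same way as those with TMM at all 3 steps, though not by the same amount. A change of reference shifts all gene models alike, so this likeness largely restates the small spread of SKIP16 under TMM. It is not separate support for SKIP16. With TUA5 alone, 25442 gene models were lower and 555 higher in the seedling against dry seed, and 20379 were higher and 13 lower in dry seed against AA1. ELF1B alone gave 17327 higher and 53 lower in dry seed against AA1. With ACT11 alone the seedling step was nearly even, with 8001 higher and 7821 lower, and with CYP2 alone the dry-seed step was, with 2068 higher and 2059 lower.

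**Figure D4:**
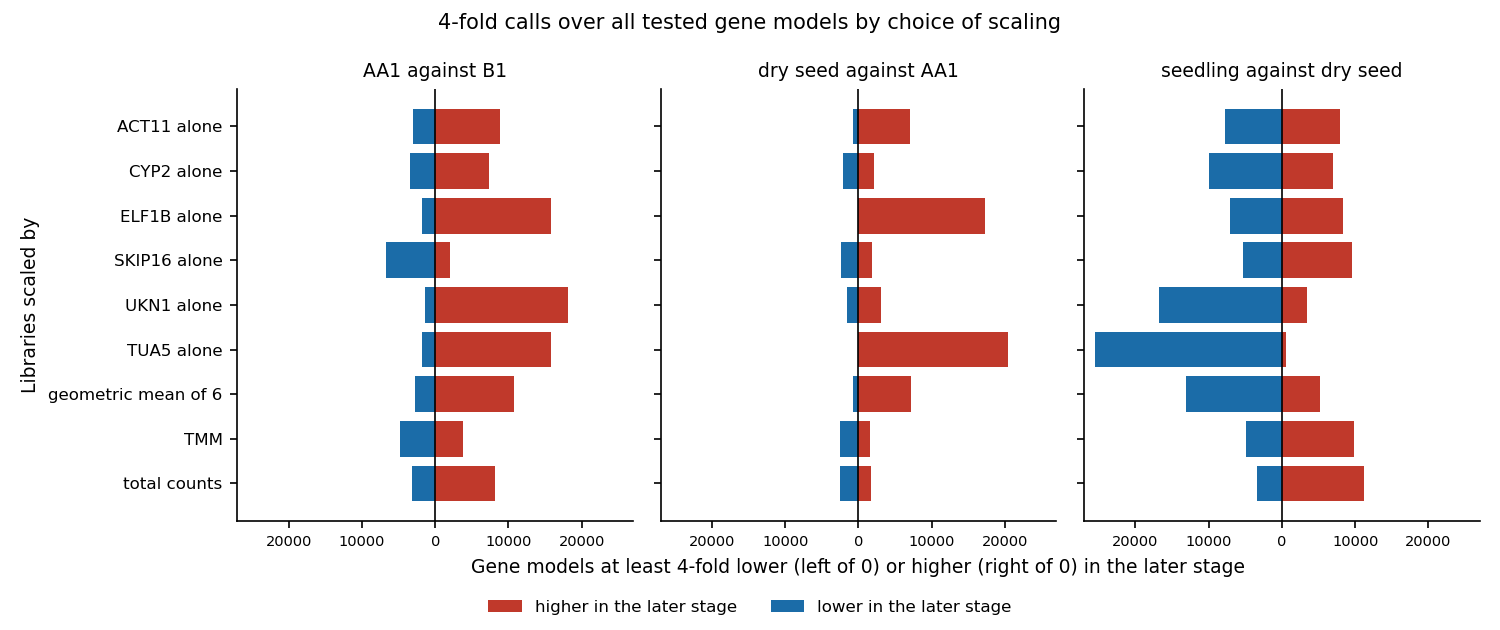
Number of gene models at least 4-fold higher (right of 0) or lower (left of 0) in the later stage at 3 steps, with libraries scaled by each reference gene alone, by the geometric mean of the 6, by TMM and by total counts. With TUA5 as the reference 25442 gene models were lower in the seedling, against 4882 with TMM.

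For each gene, the gene model with the most similar course was looked up among 12926 others whose mean reached 10 scaled CPM and that had counts in every library. Likeness is the root-mean-square difference of the log2 profiles over the 4 libraries, each centred on its own mean, and does not depend on scaling. Nearest to SKIP16 was Glyma14g36070, at 0.03, with 17.7 TMM-scaled CPM at B1, 28.0 at AA1, 26.7 in dry seed and 27.0 in the seedling. Nearest to CYP2 was Glyma19g28500 at 0.05, and nearest to ACT11 was Glyma01g07010 at 0.07. Glyma09g04820 was nearest to TUA5 at 0.11, Glyma04g40770 to UKN1 at 0.14 and Glyma10g07780 to ELF1B at 0.15. Within 0.5 lay 2150 gene models for SKIP16, 976 for CYP2 and 557 for ACT11, but 192 for UKN1, 49 for TUA5 and 38 for ELF1B. With 4 libraries a close match is common for flat courses such as that of SKIP16 and says little.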

How the data were processed

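Libraries of twice-selected poly-A RNA were read once over 76 bases, per the labels' protocols, without a strand-marking step. The deposited files hold raw counts of mapped reads per gene model, with no normalization by the authors, per the file headers. The submitters' processing notes name Bowtie. The build, the annotation and the handling of multiply mapping reads are, for these files, not given in the sources used here. Reads of overlapping antisense genes cannot be told apart.

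Of the 66210 identifiers, 0 matched a table of 59048 RefSeq genes of assembly Glycine_max_v4.0. The symbols of 3 of the 6 genes occur there (CYP2, ELF1B, SKIP16), and the entry called SKIP16 lies on another chromosome than Glyma12g05510, so the link between name and identifier rests on usage in quantitative PCR. No sequences are shown.

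TMM factors came from edgeR 4.0.16 in R 4.3.3 over all 4 libraries, and alternatives used DESeq2 1.42.0 size factors, upper quartiles, totals without the 100 most abundant gene models of any library, and TMM over gene models with at least 10 counts in some library. Gene models entered if they reached 1 scaled CPM in either library of a pair, or in any of the 4. Counts under 3 were set to 3 for ratios of all gene models, which is 0.32 scaled CPM at B1, 0.13 in dry seed and 0.07 in both AA1 and the seedling. Intervals of ratios were computed with SciPy 1.17.1 from the binomial distribution of 2 counts. PCR copies count as separate reads, so intervals cover counting error only. The scaling and the intervals were tested on simulated data. Few gene models changed in the simulation of the scaling, so it cannot show how TMM performs where most gene models differ, as here. The named gene models were all 6 members and, for each, the nearest profile. The members and rules were chosen with earlier results of these data known.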

Additional observations from a re-analysis of the deposited data

How the results depend on the processing

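The median highest over lowest of the 6 genes was 6.21 with TMM and 8.25 with totals without the 100 most abundant gene models, and it was 4.05 to 6.21 when 1 library was left out (4.14 without B1, 4.05 without dry seed). The number of genes within 2-fold was 1 with TMM, 0 with plain CPM and 2 with TMM over filtered gene models, where 7.22% of all gene models stayed within it. It was 0 at a limit of 1.5-fold, for which the share of all gene models is not given here. At 4-fold it was 2, where 30.6% of all gene models also stayed within the limit under TMM. The number within 2-fold was 1 to 2 when 1 library was left out (2 without dry seed, 2 without the seedling), a step that can only keep or raise it. The share of all gene models within 2-fold was 7.45% with TMM, 3.87% with plain CPM, 8.25% with totals without the 100 most abundant, 13.7% with a pseudocount of 1 scaled CPM, 8.44% for gene models with a mean of at least 10 scaled CPM and 6.51% for those with more than 3 counts in some library. It was 11.2% to 18.8% when 1 library was left out, a choice that leaves fewer libraries to differ. Single genes without 1 library ranged from 1.09 to 1.54 for SKIP16, 1.86 to 2.20 for CYP2, 2.43 to 4.78 for ACT11, 5.22 to 7.64 for UKN1, 5.85 to 23.4 for ELF1B and 5.73 to 47.3 for TUA5. The mean M was 1.60, and 1.40 to 1.83 when 1 library was left out. It was 1.36 to 1.77 when 1 gene was left out.

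The 36 differences (6 genes, 6 pairs) share libraries and are not independent. With TMM 18 were at least 2-fold, 16 of them in the same direction under all 6 alternatives. For these 16 no share of all gene models is given. By pair, 19.5% to 41.4% of all gene models were at least 2-fold higher with TMM and another 22.7% to 34.7% lower. Over differences and alternatives the sign changed in 10 cases, none at least 2-fold with TMM. The one that passed 2-fold in the other direction was UKN1 in the seedling against B1, at -0.33 (log2) with TMM and 1.04 with plain CPM.

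The number of gene models at least 4-fold apart in AA1 against B1 was 13404 with the geometric mean of the 6 genes, 8663 with SKIP16 alone, 8664 with TMM and 21534 at a limit of 2-fold. The near-equal totals hide unlike splits, with 2004 higher and 6659 lower for SKIP16 and 3836 higher and 4828 lower for TMM. In dry seed against AA1 it was 7880 with the geometric mean, 4127 with CYP2 alone, 17380 with ELF1B alone, 4122 with SKIP16 alone, 4594 with UKN1 alone and 20392 with TUA5 alone. It was 4149 with TMM, 4130 with total counts and 17404 at 2-fold. In the seedling against dry seed all settings stayed within 1.5 times of 18266, although the balance of higher to lower did not. With at least 5 scaled CPM required, the 3 steps had 9288, 5746 and 14014 with the geometric mean. Fewer gene models entered at that limit, and the shares are not given here. The cause of these differences was not tested. No paired analysis was possible because each stage had 1 library. The effect of depth was not tested by thinning. The fewest counts were 81, for TUA5 in dry seed, and a pseudocount of 1 scaled CPM lowered the TUA5 ratio to 37.0 from 47.3.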

Other observations

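Combinations of the 6 genes were also examined, since several reference genes are often averaged. All values are geometric means of counts, the sets were ranked on these same libraries, and no test was made. Of the 15 pairs, 2 stayed within 2-fold under TMM and 1 under plain CPM. For pairs and larger sets the share among all gene models is not given here, so these counts have no background. The shares for single gene models do not serve as one, because averaging genes can narrow the range by itself. ACT11 with SKIP16 was the pair within 2-fold under both, with a highest over lowest of 1.83 under TMM and 1.88 under plain CPM. Its levels were 95.7 TMM-scaled CPM at B1, 84.7 at AA1, 52.1 in dry seed and 69.3 in the seedling, and 55.6, 89.3, 56.5 and 105 plain CPM in the same order. The ratio of ACT11 to SKIP16 fell from 3.76 at B1 to 0.55 in dry seed, a 6.78-fold change, so the genes offset each other in the mean. Combinations were not examined under the other scalings. CYP2 with SKIP16 was steadier under TMM, at 1.54, but stood at 3.40 under plain CPM.

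Of the 20 sets of 3 genes, ACT11, CYP2 and SKIP16 gave 1.87 under TMM and 2.19 under plain CPM, and it was the 1 set within 2-fold under TMM. No set of 4 or more genes stayed within 2-fold under either scaling. The geometric mean of all 6 had a highest over lowest of 5.82 under TMM and 4.79 under plain CPM, with dry seed lowest in both. The mean of all 6 thus had a wider range than SKIP16 alone under TMM (1.54) and than ACT11 alone under plain CPM (2.56).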
